A study of Mus musculus with 14 samples.

Results

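Cells that meet extracellular ATP, UDP and adenosine at a brain injury read them through purinergic and adenosine receptors, and enzymes on the cell surface convert the nucleotides step by step to adenosine. The genes described here are 7 of the 33939 genes measured, taken as a list of symbols: *P2ry6*, *P2rx4*, *P2rx7*, *Adora2a*, *Adora3*, *Entpd1* and *Nt5e*. All 7 were matched to an Ensembl gene, and all 7 passed the filter on low values in every comparison.

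RNA was sequenced from CD11b+ microglia/macrophages, collected with magnetic beads from the contralateral (CL, non-lesion) and the ipsilateral (IL, lesion) hemispheres at 3 days after a controlled cortical impact (traumatic brain injury, TBI). Control mice (Ctrl) had the genotype Cx3cr1-CreER+/-, and conditional knockout mice (cKO) carried the same Cre allele together with the floxed target gene on both chromosomes. All mice were C57BL/6 males of 8 to 12 weeks and all received tamoxifen, so that the Cre allele and the drug are common to both genotypes. Each hemisphere was represented by 4 Ctrl and 3 cKO libraries, which gives 4 groups (Ctrl CL, Ctrl IL, cKO CL, cKO IL). The labels carry 8 mouse numbers, and 6 of them (4 Ctrl, 2 cKO) appear on both hemispheres. The cKO numbers 784 (IL) and 788 (CL) appear once each and were taken as different animals, an assumption that the labels do not settle and on which the cKO values with the mouse as a block rest. The recombinase is driven by *Cx3cr1*, which other mononuclear phagocytes use as well as microglia, and CD11b is carried by monocytes and neutrophils too, so each library is a mixture. The authors left a waiting period between tamoxifen and injury, meant to let peripheral *Cx3cr1*+ monocytes be replaced. The share of cells with the deletion in each library was not measured here. No uninjured animals entered, and the CL hemisphere is the other side of an injured brain.

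Levels are given as CPM, reads per 1000000 reads assigned to genes. The libraries held 12.2 to 41.6 M assigned reads (1 M is 1000000), as inferred from the step between the deposited values, with Ctrl IL of mouse 3546 the lowest. Summed over 8 homeostatic microglia markers, the libraries held 25201 to 35143 CPM in CL and 14566 to 17244 CPM in IL. Of 5 B cell markers 4 were under 1 CPM in every library, and the fifth, *Cd79b*, was at 15.5 to 41.8 CPM. Of 8 T and NK cell markers the 5 T cell genes were under 1 CPM in every library. The others, *Nkg7*, *Gzma* and *Klrb1c*, reached 7.02, 7.33 and 3.39 CPM, and all 3 were called lower in IL than in CL in Ctrl (limma), while 0 of 5 markers tested were called in cKO. A test of whether the change from CL to IL differed between the genotypes, given below, called 0 of 18476 genes (limma). The part of these cells in the results was not tested.

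ATP opens the P2X channels directly, whereas P2Y and adenosine receptors signal through G proteins. The ectonucleotidase CD39, encoded by *Entpd1*, removes phosphates from ATP and ADP to give AMP, and CD73, encoded by *Nt5e*, turns AMP into adenosine. Microglia are known for using P2Y receptors to find damage and for expressing CD39 strongly. On injury, the receptor for UDP encoded by *P2ry6* has been tied to phagocytosis, and the channel encoded by *P2rx7* to the release of interleukin-1 beta.

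Per length of exon, *Entpd1* stood highest in Ctrl CL at 114 ± 15.9 CPM per kb (SD, n = 4), followed by *P2ry6* at 88.6 ± 10.7 CPM per kb. The ranges of these neighbours overlapped. *Adora3* followed at 24.5 ± 4.33, *P2rx7* at 14.4 ± 5.18 and *P2rx4* at 12.2 ± 0.833 CPM per kb, each overlapping the next. *Nt5e* at 0.242 ± 0.142 CPM per kb was far lower and overlapped *Adora2a*, the lowest of the 7. In Ctrl IL the order differed. *P2ry6* came first at 87.2 ± 10.3 CPM per kb, apart from *Entpd1* at 55.9 ± 9.46, and *P2rx4* at 19.1 ± 3.52 came before *Adora3* at 15.2 ± 1.42 and *P2rx7* at 9.98 ± 4.99. The last 3 overlapped as neighbours, and *Nt5e* at 1.92 ± 0.684 CPM per kb no longer overlapped *Adora2a*.

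In cKO CL the order of the 7 genes was that of Ctrl CL, with *Entpd1* at 122 ± 8.60 and *P2ry6* at 75.5 ± 4.40 CPM per kb (SD, n = 3), here without overlap. In cKO IL the order was that of Ctrl IL, with *P2ry6* at 74.1 ± 2.98 and *Entpd1* at 67.2 ± 7.64 CPM per kb, whose ranges overlapped.

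**Figure D1:**
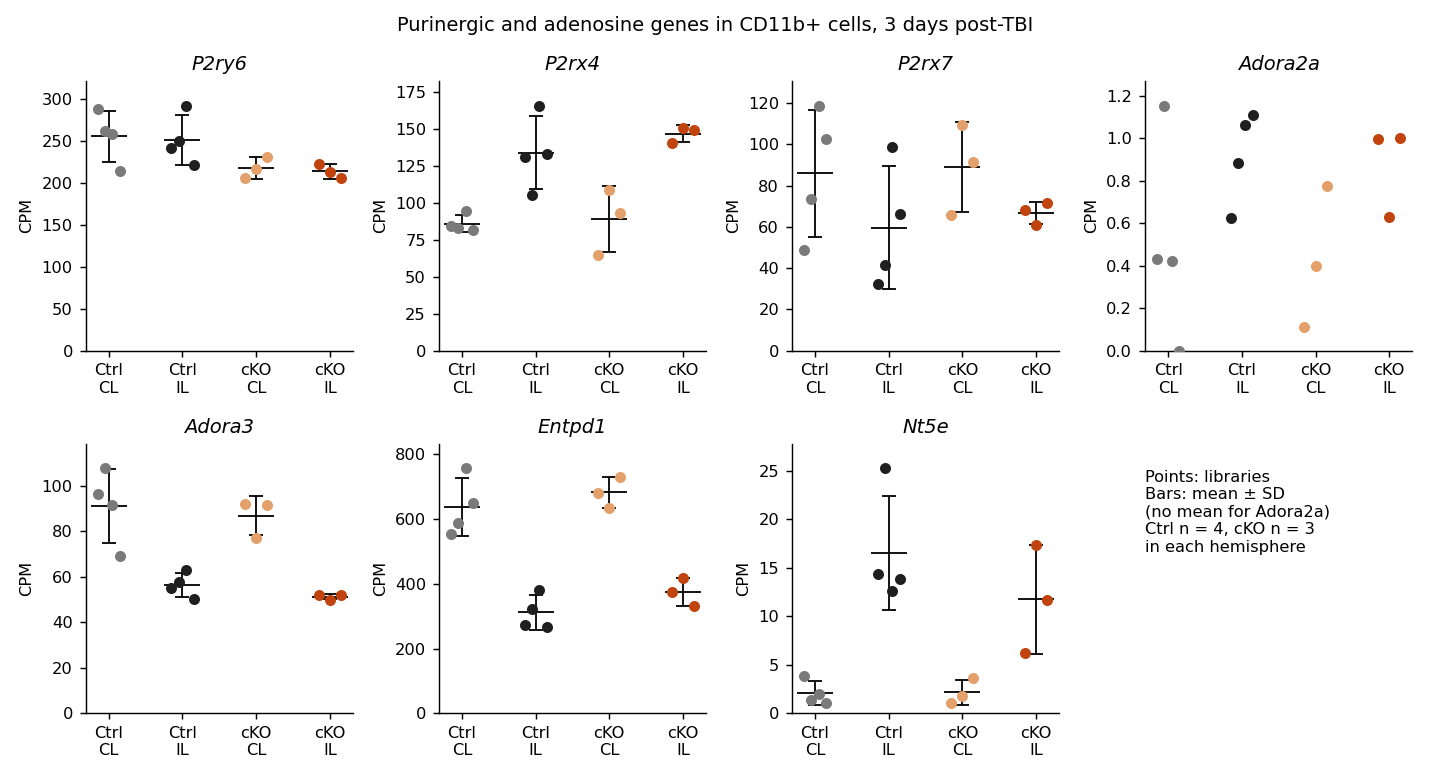
CPM of the 7 genes in each library (points) by genotype and hemisphere, with linear axes from 0 and bars for the mean ± SD of 4 Ctrl or 3 cKO libraries (no mean is drawn for *Adora2a*). *Entpd1* and *Adora3* sit lower and *P2rx4* and *Nt5e* higher in the IL groups of both genotypes, without overlap with the CL libraries of the same genotype.

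The comparison of IL with CL asks how these transcripts stand in the injured hemisphere. In Ctrl mice *Nt5e* and *P2rx4* rose and *Entpd1* fell, which makes 3 of 7 genes called, beside 6.58% of all genes tested. In cKO mice *Nt5e* and *P2rx4* rose and *Entpd1* and *Adora3* fell, which makes 4 of 7, beside 22.4% of all genes tested. Calls required a fold change of 1.2 or more and an adjusted p (limma, Benjamini-Hochberg across the whole table) of no more than 0.05. This fit did not pair the hemispheres of a mouse, and results with the mouse as a block are given further on. Fold changes, with their standard error (SE), refer to log2(CPM + 1) after scaling, which understates changes of genes near 1 CPM. In bulk samples, a smaller share of cells that express a gene cannot be told apart from less RNA per cell.

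*Entpd1* (ENSMUSG00000048120, chr19:40612366-40741602, plus strand, GRCm38) was at 555, 589, 757 and 650 CPM in the Ctrl CL libraries of mice 3541, 3545, 3546 and 3551. In Ctrl IL the same mice had 274, 323, 382 and 268 CPM. The highest IL library was thus below the lowest CL library. In cKO CL it was at 731, 682 and 635 CPM (mice 3592, 788 and 791), and in cKO IL at 332, 375 and 417 CPM (mice 3592, 784 and 791), again without overlap. It fell by 0.96 on the log2 scale in Ctrl (SE 0.15, adjusted p = 0.00620, limma) and by 0.78 in cKO (SE 0.15, adjusted p = 0.00877). Within a mouse, the IL level was 0.412 to 0.657 of the CL level in 6 of 6 mice.

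*Nt5e* (ENSMUSG00000032420, chr9:88327197-88372092) was at 3.82, 1.38, 2.01 and 1.12 CPM in Ctrl CL and at 14.4, 25.3, 12.6 and 13.9 CPM in Ctrl IL, in the same order of mice. In cKO it was at 3.64, 1.08 and 1.78 CPM in CL and at 11.7, 6.20 and 17.4 CPM in IL. All IL libraries lay above all CL libraries, and the Ctrl IL library of mouse 3545 stood above the others of its group. The log2 fold change was 2.58 in Ctrl (SE 0.35, adjusted p = 0.00264, limma) and 2.06 in cKO (SE 0.39, adjusted p = 0.00934). The ratio within a mouse was spread widely, from 3.21 to 18.3 in 6 mice. The transcripts of *Entpd1* and *Nt5e* thus moved in opposite directions, and *Nt5e* remained at a small part of the *Entpd1* level per kb.

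Among the adenosine receptors, *Adora3* (ENSMUSG00000000562, chr3:105870858-105908926), whose product couples to inhibitory G proteins, was at 96.5, 108, 91.5 and 69.3 CPM in Ctrl CL and at 55.2, 57.9, 63.0 and 50.3 CPM in Ctrl IL. In cKO it was at 91.5, 92.2 and 77.0 CPM in CL and at 51.9, 52.2 and 49.96 CPM in IL. The hemispheres did not overlap in either genotype. In cKO it fell by 0.66 on the log2 scale (SE 0.11, adjusted p = 0.00586, limma), a call that a single fit of all 14 libraries did not make (adjusted p = 0.0697). In Ctrl the log2 fold change was -0.59 (SE 0.21), which did not pass the test at an adjusted p of 0.137, and with the mouse as a fixed block it did, at an adjusted p of 0.00678 (SE 0.10). It also passed with the deposited CPM left unscaled, at an adjusted p of 0.0274. The IL level was 0.537 to 0.727 of the CL level in 6 of 6 mice. *Adora3* shares 779 exon bases with *Tmigd3* on the same strand, whose reads there cannot be told apart, and *Tmigd3* reached at most 0.784 CPM.

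*Adora2a* (ENSMUSG00000020178, chr10:75316877-75334784), whose product couples to stimulatory G proteins, was hardly detected. It was at 0.433, 1.15, 0.424 and 0 CPM in Ctrl CL, at 0.626, 0.882, 1.06 and 1.11 CPM in Ctrl IL, at 0.775, 0.111 and 0.400 CPM in cKO CL and at 1.0003, 0.995 and 0.627 CPM in cKO IL. It is listed at 0 in the Ctrl CL library of mouse 3551, where a count of 0 allows up to 0.187 CPM (3 counts, counting error only). The hemispheres overlapped in both genotypes, with log2 fold changes of 0.40 in Ctrl (SE 0.22, adjusted p = 0.346, limma) and 0.44 in cKO (SE 0.19, adjusted p = 0.124). With a pseudocount of 0.1 these were 1.23 and 1.16, and with the mouse as a fixed block the cKO value was 0.23 (adjusted p = 0.461). Leaving out a CL library gave 0.23 (without mouse 3551) to 0.62 (without mouse 3545) in Ctrl, and 0.29 (without mouse 788) to 0.60 (without mouse 3592, adjusted p = 0.0403, limma) in cKO.

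*P2rx4* (ENSMUSG00000029470, chr5:122707544-122729738) encodes an ATP-gated cation channel and was at 84.4, 83.3, 94.5 and 81.4 CPM in Ctrl CL and at 131, 106, 166 and 133 CPM in Ctrl IL. In cKO it was at 93.5, 64.8 and 109 CPM in CL and at 150, 140 and 151 CPM in IL. No IL library overlapped the CL libraries of its genotype. The log2 fold change was 0.69 in Ctrl (SE 0.15, adjusted p = 0.0219, limma) and 0.83 in cKO (SE 0.16, adjusted p = 0.0103), and the ratio within a mouse was 1.27 to 1.76 in 6 of 6 mice. In Ctrl the call was lost without the CL library of mouse 3546 (adjusted p = 0.0536) and without the IL library of mouse 3541 (adjusted p = 0.0967).

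*P2rx7* (ENSMUSG00000029468, chr5:122643911-122691432) lies on the same strand 16.1 kb before *P2rx4* and also encodes an ATP-gated channel. It was at 49.0, 73.7, 119 and 102 CPM in Ctrl CL and at 32.1, 41.4, 98.8 and 66.1 CPM in Ctrl IL. The mice differed more than the hemispheres, by 2.42-fold in Ctrl CL and 3.07-fold in Ctrl IL between the lowest and the highest, and the 4 mice had the same order in both hemispheres. In cKO it was at 91.3, 65.9 and 110 CPM in CL and at 71.5, 68.4 and 60.9 CPM in IL, with overlap. The log2 fold change was -0.50 in Ctrl (SE 0.28, adjusted p = 0.361, limma). With the mouse as a fixed block the same value had an SE of 0.10 and passed the test (adjusted p = 0.0140). With the mouse as a random block at the estimated correlation it was -0.48 (SE 0.17) and did not pass (adjusted p = 0.0536). In cKO it was -0.29 (SE 0.15, adjusted p = 0.207), and with the fixed block, which rests on the 2 mice with both hemispheres, -0.49 (adjusted p = 0.0534). The IL level was 0.556 to 0.831 of the CL level in 6 of 6 mice.

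*P2ry6* (ENSMUSG00000048779, chr7:100937630-100974649, minus strand) was at 288, 262, 258 and 214 CPM in Ctrl CL and at 242, 251, 292 and 222 CPM in Ctrl IL. In cKO it was at 231, 206 and 216 CPM in CL and at 206, 223 and 213 CPM in IL. The hemispheres overlapped in both genotypes. The log2 fold change was 0.05 in Ctrl (95% interval -0.36 to 0.47, adjusted p = 0.931, limma) and 0.06 in cKO (-0.17 to 0.29, adjusted p = 0.705), and both turned slightly below 0 without scaling of the deposited CPM. Of 6 mice, 2 had more CPM in IL and 4 had less, as deposited.

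Of the 7 genes, 4 did not overlap between the hemispheres in Ctrl and 4 in cKO, and these were the same genes, *P2rx4*, *Adora3*, *Entpd1* and *Nt5e*. Over all genes tested the libraries did not overlap for 17.7% in Ctrl and 42.4% in cKO. With the mouse as a fixed block, 5 of 7 genes were called in Ctrl, beside 20.5% of all genes, and 4 of 7 in cKO, beside 13.8%. With the random block 4 of 7 were called in Ctrl, without *P2rx7*, beside 23% of all genes (4258 of 18476).

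**Figure D2:**
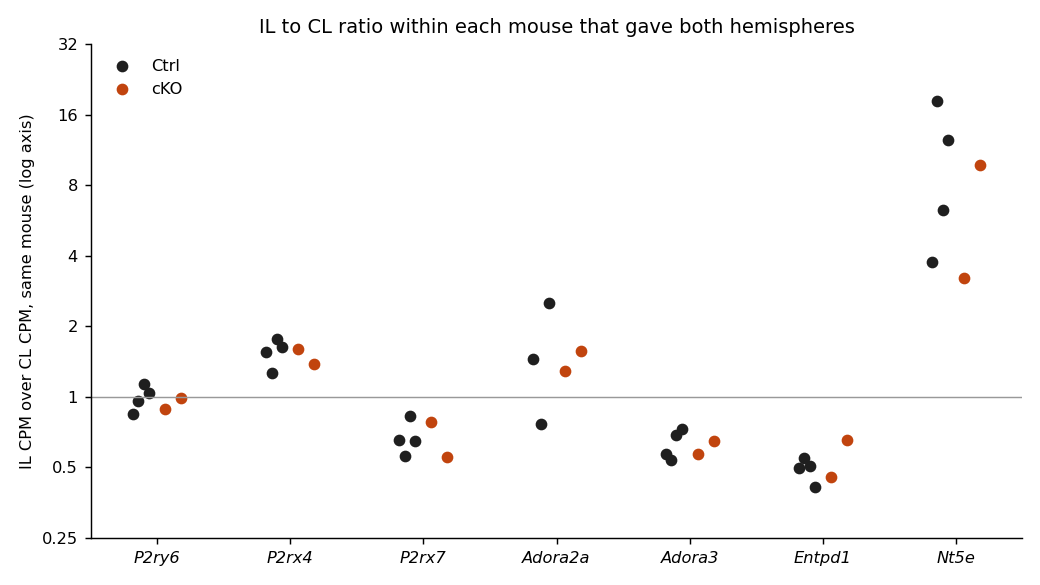
Ratio of IL to CL CPM (log axis) for the 7 genes in each of the 4 Ctrl and 2 cKO mice that gave both hemispheres, with a line at equal levels. *P2rx4* and *Nt5e* lie above the line and *P2rx7*, *Adora3* and *Entpd1* below it in all 6 mice. The *Adora2a* ratio of mouse 3551 is left out because its CL value is 0.

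Markers of other cells moved with the hemispheres. In IL, 6 of 8 homeostatic microglia markers were called lower in each genotype, and 5 of 8 monocyte markers were called higher and 0 lower. Not every monocyte marker rose. In Ctrl, mean *Ly6c2* went from 30.4 CPM in CL to 11.6 CPM in IL, and mean *Chil3* from 236 to 104 CPM. In cKO, *Ly6c2* went from 10.2 to 18.2 CPM and *Chil3* from 73.7 to 62.2 CPM. The sum of the 8 monocyte markers ranged from 115 to 701 CPM in Ctrl CL and from 603 to 896 CPM in Ctrl IL, and from 112 to 309 CPM in cKO CL and 586 to 786 CPM in cKO IL. The 8 neutrophil markers summed to 1285 to 6608 CPM in Ctrl CL and 831 to 1221 CPM in Ctrl IL. In cKO they summed to 1166 to 1979 CPM in CL and 790 to 993 CPM in IL. Of the 8 neutrophil markers, 5 were called lower in IL in cKO and 0 in Ctrl (limma), while their median log2 fold change was -1.29 in cKO and -2.72 in Ctrl. Gene by gene, the change from CL to IL was compared between the genotypes over all 14 libraries, as given below. This called 0 of 18476 genes (limma), and the counts of calls were not compared. The 6 astrocyte markers summed to 41.2 to 50.3 CPM in Ctrl CL and 50.4 to 93.5 CPM in Ctrl IL, and to 29.0 to 66.5 CPM in cKO CL and 51.3 to 103 CPM in cKO IL, with 1 called higher in each genotype. The part of these cells in the changes of the 7 genes was not tested. Over all libraries, border-associated macrophage markers summed to 157 to 746 CPM, oligodendrocyte markers to 176 to 310 CPM, endothelial markers to 78.9 to 218 CPM and pericyte and fibroblast markers to 22.6 to 132 CPM. In Ctrl, 1 of 6 border-associated macrophage markers was called lower in IL and 1 of 6 pericyte and fibroblast markers higher. In cKO, 2 of 6 oligodendrocyte markers and 1 of 6 endothelial markers were called higher. The 9 genes of the dissociation response summed to 25976 to 39932 CPM in CL and 18024 to 20723 CPM in IL. Of them, 4 were called lower in IL in cKO and 0 in Ctrl, and the comparison of these changes between the genotypes called 0 of 18476 genes (limma).

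The 250 bases before RefSeq start sites (GRCm38.p6) are shown for *Adora3* and *Entpd1*, the 2 genes called lower in IL in cKO, and for *P2rx4*, called higher. The *Adora3* window and the second *Entpd1* window lie inside the annotated genes, outside GENCODE exons. All are on the plus strand, 5′ to 3′, in lower case with the matches to any of the motifs in capitals.
Adora3, chr3:105904171-105904420: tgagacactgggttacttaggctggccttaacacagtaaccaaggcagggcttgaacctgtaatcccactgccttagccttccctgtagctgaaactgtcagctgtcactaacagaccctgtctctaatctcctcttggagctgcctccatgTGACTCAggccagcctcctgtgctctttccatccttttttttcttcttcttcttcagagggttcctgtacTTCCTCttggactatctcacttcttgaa
Entpd1, first start, chr19:40612116-40612365: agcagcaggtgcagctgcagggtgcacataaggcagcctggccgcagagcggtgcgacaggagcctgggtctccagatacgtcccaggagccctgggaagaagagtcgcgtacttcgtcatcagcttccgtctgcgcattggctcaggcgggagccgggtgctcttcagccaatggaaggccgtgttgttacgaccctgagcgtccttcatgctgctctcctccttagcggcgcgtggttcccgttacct
Entpd1, second start, chr19:40659520-40659769: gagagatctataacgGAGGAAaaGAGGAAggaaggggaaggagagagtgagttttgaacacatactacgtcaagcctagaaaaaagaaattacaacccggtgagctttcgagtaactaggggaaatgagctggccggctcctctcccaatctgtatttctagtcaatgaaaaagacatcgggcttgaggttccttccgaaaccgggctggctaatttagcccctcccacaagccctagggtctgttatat
P2rx4, chr5:122707294-122707543: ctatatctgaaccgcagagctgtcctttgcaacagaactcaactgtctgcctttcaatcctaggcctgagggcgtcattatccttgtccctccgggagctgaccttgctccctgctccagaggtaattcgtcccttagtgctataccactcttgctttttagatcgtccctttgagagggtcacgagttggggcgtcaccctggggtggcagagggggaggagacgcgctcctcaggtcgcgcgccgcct
The motifs were searched on both strands: AP-1 (TGANTCA), CRE (TGACGTCA), hypoxia response (ACGTG), PU.1 (GAGGAA), NF-kB and SP1 (GGGCGG). The *Adora3* window held an AP-1 match 98 bases and a PU.1 match 28 bases before the start. The second *Entpd1* window held PU.1 matches 235 and 227 bases before its start, and the first *Entpd1* window and the *P2rx4* window held no match. The *Nt5e* window and the first *P2rx7* window overlap GENCODE exons and are not printed. The *Nt5e* window held SP1 matches 223, 219, 24 and 19 bases before the start. The first *P2rx7* window held SP1 matches 90 and 11 bases before the start and an AP-1 match at its far end, and the second *P2rx7* window held no match. Over 32851 windows of the same length, 6.75% held the AP-1 letters and 23.3% the PU.1 letters, against 1.55% for CRE, 16.6% for hypoxia response, 0.356% for NF-kB and 32.7% for SP1. These are matches of letters, and binding was not measured. Of the 7 genes, 5 had a window in the table.

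Across the 14 libraries the levels of *Entpd1* and *Adora3* had a Pearson r of 0.79, and those of *Entpd1* and *Nt5e* of -0.83. *P2rx4* and *Nt5e* had an r of 0.85. The 14 libraries share hemispheres and mice, so these values are a description. By the same measure over the 10622 genes with a mean of at least 5 CPM, *Entpd1* was most like *Hbegf* (0.983), *Sncaip* (0.969) and *Tmc7* (0.967). *Nt5e* was most like *Slc7a11* (0.982), *Clec4n* (0.977) and *Tmem189* (0.977). For *Adora3* they were *Zscan22* (0.985), *Saraf* (0.976) and *Gne* (0.975), and for *P2rx4* they were *Tspan17* (0.968), *Slfn5* (0.963) and *Cdk18* (0.961). The values were lower for *P2rx7*, with *Ctnnd1* (0.930), *Tjp1* (0.916) and *Zfp384* (0.909), for *P2ry6*, with *Msra* (0.918), *Sap18* (0.912) and *Nif3l1* (0.908), and for *Adora2a*, with *Cnot11* (0.863), *Aggf1* (0.863) and *Cln8* (0.852).

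The comparison of cKO with Ctrl asks whether the conditional knockout in *Cx3cr1*-expressing cells goes with another level of these genes. None of the 7 genes was called in either hemisphere by limma, and none had an unadjusted p under 0.05. Among all genes 0.658% were called in IL and 0.875% in CL. No gene of the 7 separated the genotypes without overlap, beside 10.3% of all genes in IL and 10% in CL.

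In IL *Nt5e* was at a log2 fold change of -0.50 (95% interval -1.37 to 0.37), *P2rx7* at 0.31 (-0.30 to 0.91) and *Entpd1* at 0.29 (-0.08 to 0.65). Leaving out single libraries moved *Nt5e* from -0.85 (without cKO mouse 791) to -0.15 (without cKO mouse 784), with -0.25 without Ctrl mouse 3545. *P2rx7* ran from 0.10 (without Ctrl mouse 3541) to 0.52 (without Ctrl mouse 3546), and *Entpd1* from 0.17 (without cKO mouse 791) to 0.42 (without cKO mouse 3592). *P2ry6* was at -0.21 (-0.51 to 0.08), *P2rx4* at 0.16 (-0.11 to 0.44), *Adora3* at -0.12 (-0.41 to 0.18) and *Adora2a* at -0.03 (-0.35 to 0.30). These adjusted p values ran from 0.701 to 0.986 (limma).

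In CL *P2ry6* was at -0.23 (-0.65 to 0.18), and the others lay between -0.07 and 0.10. The intervals were widest for *Nt5e*, from -0.76 to 0.79, and *Adora2a*, from -0.65 to 0.50. The adjusted p values ran from 0.736 to 0.993. Whether the change from CL to IL differed between the genotypes was tested as an interaction over all 14 libraries. It was called for 0 of 18476 genes (0% of those tested, limma), with 481 at an unadjusted p under 0.05 and none of the 7 among them. The interaction of *Nt5e* was -0.52 (95% interval -1.75 to 0.71) and that of *Entpd1* 0.19 (-0.25 to 0.62), each with adjusted p = 0.9999.

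**Figure D3:**
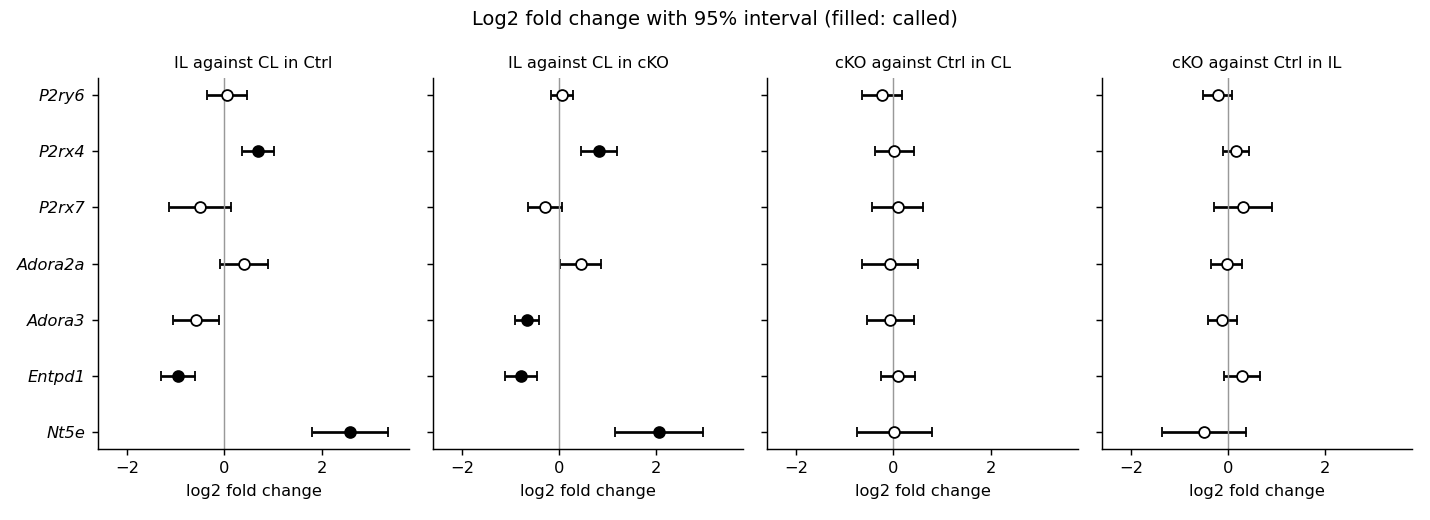
Log2 fold change with its 95% interval for the 7 genes in 4 comparisons, with filled points for genes called by limma. *P2rx4*, *Entpd1* and *Nt5e* are filled in both comparisons of IL with CL, *Adora3* is filled in that of cKO, and no point is filled between the genotypes.

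The other genes of the pathway were 44 genes for receptors, ectonucleotidases, nucleotide release and adenosine handling. The P2Y group was taken by symbol, *P2ry10* and *P2ry10b* included, and whether each product binds nucleotides was not assessed. Of 35 list genes tested in Ctrl, 4 rose in IL and 2 fell, where 3.63% of all genes rose and 2.96% fell. Of 34 tested in cKO, 9 rose and 5 fell, where 12.8% of all genes rose and 9.52% fell. The median log2 fold change of the list was 0.06 in Ctrl and 0.19 in cKO, beside -0.04 and 0.02 over all genes tested. With the mouse as a fixed block, 7 were called higher and 8 lower in Ctrl, 15 in all, beside 20.5% of all genes. In cKO 8 were called higher and 5 lower, 13 in all, beside 13.8%. Between the genotypes none was called by limma, of 34 tested in IL and 35 in CL, and 5 and 2 of them had an unadjusted p under 0.05, as had 1502 of 16873 and 1625 of 16570 of all genes tested.

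Among P2Y receptors, *P2ry12* is the ADP receptor by which microglia extend processes to damage. It is also in the list of homeostatic microglia markers above, so its call is counted there too. *P2ry12* was at 4372 ± 706 CPM (SD, n = 4) in Ctrl CL and 1597 ± 181 CPM in Ctrl IL, and it fell by 1.37 on the log2 scale (SE 0.21, adjusted p = 0.00519, limma). *P2ry13*, also an ADP receptor, went from 2132 ± 341 to 723 ± 144 CPM and fell by 1.49 (SE 0.19, adjusted p = 0.00208). Both fell in cKO as well, by 1.36 and 1.34. *P2ry2*, a receptor for ATP and UTP, rose from 2.44 ± 0.887 to 15.7 ± 3.57 CPM in Ctrl, by 2.35 (SE 0.24, adjusted p = 0.000717), and by 1.92 in cKO. *P2ry10*, placed here by its symbol alone, passed the test in cKO with and without the fixed block, and *P2ry14* lost its call with the block (adjusted p = 0.171). The interaction was called for no gene of the list.

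Among adenosine receptors, *Adora2b*, the low-affinity receptor, rose by 1.67 in Ctrl (2.76 ± 0.871 to 10.7 ± 4.26 CPM, adjusted p = 0.00793, limma) and by 2.11 in cKO. *Adora1* passed the test in cKO, with a log2 fold change of 0.92 (adjusted p = 0.0457), and not with the fixed block (adjusted p = 0.206). Among the enzymes, *Enpp1*, which splits ATP to AMP and pyrophosphate, rose by 1.93 in Ctrl (SE 0.18, adjusted p = 0.000523) and by 1.53 in cKO. Of the NAD-consuming enzymes, *Cd38* passed in Ctrl (1.86, adjusted p = 0.00752) and *Bst1* in cKO (1.57, adjusted p = 0.0188). With the fixed block both passed in both genotypes, with adjusted p = 0.0206 for *Cd38* in cKO and 0.00105 for *Bst1* in Ctrl. With the random block *Cd38* did not pass in cKO (0.94, adjusted p = 0.0588). The nucleoside transporters *Slc29a1* and *Slc29a3* fell in cKO, by 0.48 and 0.61, and *Adk*, which phosphorylates adenosine, rose by 0.49. *Entpd3* rose (0.83) and the phosphatase *Acpp* fell (0.65) in cKO, calls that the fixed block kept and the random block did not (adjusted p = 0.0642 and 0.118). With the fixed block the cKO calls of *Slc29a1* (adjusted p = 0.0845) and *Adk* (0.0701) were lost, while the random block kept them (0.0454 and 0.0361). With the fixed block *Slc29a1*, *Slc29a3*, *Adk* and *Entpd3* were called in Ctrl, with adjusted p from 0.00250 to 0.0249. The same fit called *Alpl*, *P2rx1*, *P2ry10b* and *Pnp* lower in IL in Ctrl, with adjusted p from 0.00500 to 0.0273. *Alpl* was called lower in cKO too, with the fixed block (-1.12, adjusted p = 0.0346) and with the random block (-1.01, adjusted p = 0.0354). Of 6 nucleotide release genes tested, 0 were called by limma in either genotype, and 1 in each had an unadjusted p under 0.05, as had 3460 of 16376 genes in Ctrl and 6132 of 16757 in cKO. *Gja1*, a gap junction subunit that is also 1 of the 6 astrocyte markers above, named after its values were seen, was called in cKO with the fixed block (1.11, adjusted p = 0.0166) and with the random block (1.07, adjusted p = 0.0257).

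**Figure D4:**
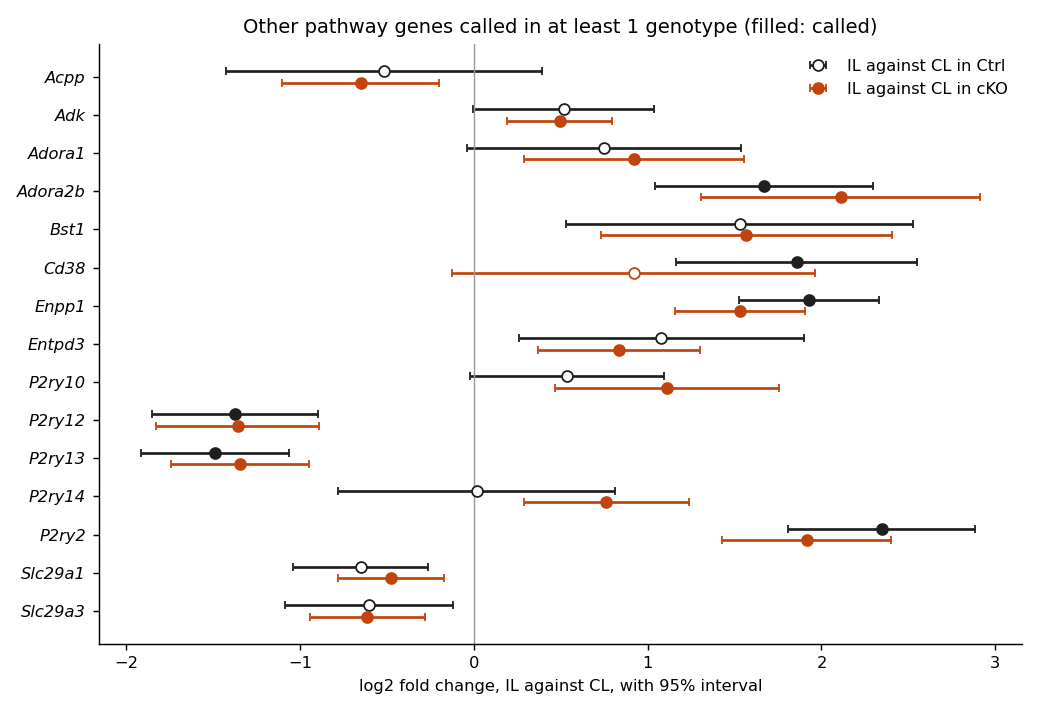
Log2 fold change of IL against CL with its 95% interval for the pathway genes called in at least 1 genotype, in Ctrl (black) and cKO (orange), with filled points where called. *P2ry12* and *P2ry13* lie below 0 and *P2ry2*, *Enpp1* and *Adora2b* above it in both genotypes, all filled.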

How the data were processed

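CD11b+ cells were sequenced from 14 hemispheres with Smart Seq v4, a kit that does not mark strand. Per the labels the authors' tools were STAR (mm10) and Partek 8.0, and the values they deposited as raw counts are CPM, since each library sums to 1000000. Of the values under 100 reads, 79.0% to 83.5% were whole multiples of a single step per library (tolerance 0.03), so count models were not used, and depth was inferred from that step (12.2 to 41.6 M reads, median 34.2 M, with 1 M being 1000000). The authors also deposited tables of their own cKO against Ctrl comparisons, which hold fold changes and p values and were not used.

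Gene symbols came from GENCODE release M21, which matched 33802 of 33939 identifiers. The CPM were scaled by an unweighted trimmed mean of M-values (30% of M and 5% of A trimmed), and log2(CPM + 1) was fitted with limma 3.58.1 in R 4.3.3, with a variance trend, on the groups compared. A gene was tested if it reached 10 reads, expressed as CPM at median depth, in at least the number of libraries of the smaller group, and 15 reads over all of them. The script was tested on simulated data. Intervals are 95%. Figures used Python 3.11.15 and matplotlib 3.10.9, and near-identical copies (at least 90% over 200 bases) were searched with blastn 2.17.0.

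The 7 genes, the pathway and marker lists and the tests were chosen with earlier results of these data known. The genes named are the 7, pathway genes called without a block in at least 1 comparison, markers of other cells, and for each of the 7 the 3 genes with the highest Pearson r. *Tmigd3*, which overlaps a member, and *Gja1*, *Alpl*, *P2rx1*, *P2ry10b* and *Pnp*, called with a block, were added after their values were seen. A further gene of that rule is not reported here. Hemispheres pair by mouse because they come from the same animal. Deviations from the group means correlated at 0.182 to 0.608 in the 6 pairs (median 0.413), against -0.536 to 0.503 (median -0.215) for 19 other pairs, so that the ranges overlap. Taking deviations from the group means pushes the other pairs downwards when pairs of the same mouse are positive. The other pairs are therefore no independent baseline. Alternatives were other scalings, pseudocounts, filters and thresholds, a single fit of all libraries, the mouse as a block and leaving out each library.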

Additional observations from a re-analysis of the deposited data

Results flagged for a closer look

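The *Nt5e* level of the Ctrl IL library of mouse 3545, at 25.3 CPM, stood apart from the other 3 libraries of its group. The gap to the nearest of them was 0.861 of the range of the group, above Dixon's 95% critical value for 4 libraries. Of 14 groups of 4 libraries tested, 1 was flagged, and chance flags about 1 in 20.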

How the results depend on the processing

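The calls of *Nt5e* and *Entpd1* between hemispheres and the absence of calls of the 7 genes between genotypes did not change with scaling, pseudocount, filter, a single fit, the mouse as a block or the omission of any library, except that at a fold change of at least 2 *Nt5e* was the 1 call left in Ctrl and the 1 in cKO. *Adora2a* between genotypes in CL was not tested under the strict filter, which it did not pass. Without a library, 2 to 4 of the 7 genes were called in Ctrl and 4 to 5 in cKO. The added calls were *Adora3* in Ctrl without the CL library of mouse 3551 (adjusted p = 0.0443, limma), and in cKO *Adora2a* without the CL library of mouse 3592 (0.0403) and *P2rx7* without that of mouse 788 (0.0381). *P2rx4* in Ctrl lost its call without the CL library of mouse 3546 (0.0536) or the IL library of mouse 3541 (0.0967). *Adora3* in Ctrl was also called with the deposited CPM (0.0274), in the single fit (0.0469) and with either block. *Adora3* in cKO lost its call in the single fit of all libraries (0.0697). The fixed block of mice raised the Ctrl calls among the 7 to 5, the random block, which did not call *P2rx7* (0.0536), to 4, and the fixed block changed no call of the 7 in cKO. Counts over all genes moved more, and the cause was not tested. For cKO against Ctrl in IL they were 69 without a filter and 190 with the mouse as a random block, and 46 (without cKO mouse 784) to 284 (without Ctrl mouse 3546) when a library was left out, with a shift over 1.5 times for every library but that of cKO mouse 3592. In CL they were 86 with the strict filter, 265 in the single fit and 290 with the random block, and 70 (without cKO mouse 791) to 165, with such a shift also without Ctrl mouse 3545 and cKO mouse 788. For IL against CL in Ctrl they were 590 without a filter, 555 at a fold change of 2, 2009 in the single fit, 4258 with the random and 3358 with the fixed block, and 487 (without the IL library of mouse 3541) to 1413. A shift over 1.5 times also followed for the CL libraries of mice 3545 and 3546 and the IL libraries of mice 3545 and 3551. In cKO they were 822 at a fold change of 2, 1391 in the single fit and 2315 with the fixed block, and 1881 (without the IL library of mouse 784) to 3537, with such a shift also without the CL library of mouse 788 and the IL libraries of mice 3592 and 791. The interaction had 3 calls with the random block and 0 to 1 without a library. The direction of the calls depended on scaling. In Ctrl 55.1% of calls were higher in IL, against 43.4% with the deposited CPM and 64.2% with upper-quartile scaling, and in cKO 57.4%, against 43.4% with the deposited CPM.

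Values that turned sign were all of genes not called. Between genotypes in CL, *Adora3* was 0.014 with upper-quartile scaling, *Adora2a* 0.015 with a pseudocount of 0.1 and *Nt5e* -0.076 with the random block. For IL against CL, *P2ry6* was -0.021 in Ctrl and -0.025 in cKO with the deposited CPM. The interaction of *P2ry6* was -0.0043 with the deposited CPM, -0.086 with upper-quartile scaling, -0.056 with median-ratio scaling and -0.0083 with the random block, and that of *Adora2a* was -0.069 with a pseudocount of 0.1 and -0.032 with the random block. Without a library, the genotype difference in IL ran from -0.085 to 0.059 for *Adora2a*. In CL it ran from -0.13 to 0.20 for *P2rx4*, -0.10 to 0.26 for *P2rx7*, -0.25 to 0.13 for *Adora2a*, -0.23 to 0.061 for *Adora3* and -0.28 to 0.30 for *Nt5e*. The difference of *P2ry6* between hemispheres in Ctrl ran from -0.060 to 0.16. The interaction ran from -0.10 to 0.13 for *P2ry6*, -0.047 to 0.29 for *P2rx4*, -0.028 to 0.42 for *P2rx7*, -0.16 to 0.22 for *Adora2a* and -0.19 to 0.10 for *Adora3*. Depth limits *Adora2a* and the CL level of *Nt5e*, which rest on few reads.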
